A study of Mus musculus with 4 samples.

Results

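The immature neurons of the frontal cortex are the cells that the authors labelled imNeur in the deposited cell table of that region, 181 of 10014 frontal cortex cells and of 21644 cells in the series. Of these, 78 came from the transgenic library and 103 from the wildtype library, and all lay in 1 cluster of the authors, number 16. The series profiled single cells with 10x Genomics 3' v3 chemistry from frontal cortex and midbrain, with a dissociation meant for glial and vascular cells of adult brain. The transgenic mice carry the strain label Hua-Syn(A53T), a line used as a model of Parkinson's disease. They were set against wildtype littermates labelled C57BL/6. Mice of both groups were 6 to 9 months old, with 3 mice stated per group. The labels do not name the promoter that drives the transgene. The mouse genome build holds no human gene, so transgene RNA had no entry of its own in the counts. Each region and genotype was 1 library and no cell is traced to a mouse. Every genotype difference below therefore compares 2 libraries, has no replicate check and carries no p-value, and its intervals cover counting error only.

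Immature neurons are the young daughters of neural stem cells. In the adult rodent forebrain such cells arise in the subventricular zone beside the lateral ventricle and migrate as chains of neuroblasts to the olfactory bulb, where they become inhibitory interneurons. The lineage runs from stem cells through fast-dividing progenitors to neuroblasts with doublecortin (Dcx), Sox11 and the Dlx homeobox genes, some of which still divide while they migrate. The sources used here do not say where in the sampled tissue these cells lay.

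The imNeur cells had a median of 6926.5 UMIs (counted transcript molecules) in the transgenic and 7697 in the wildtype library, and median mitochondrial shares of 4.41% and 4.20%. Their UMIs summed to 602119 and 799868, and levels below are counts scaled to a total of 1000000 UMIs (CPM). The nearest label, mNeur (mature neurons), held 80 transgenic and 67 wildtype cells in cluster 13. The 2 frontal cortex libraries shared 3 cell barcodes, and 0 of them belonged to imNeur cells. A few imNeur cells carried much RNA of another type: 3 transgenic and 4 wildtype cells held 20 or more UMIs of the 8 microglial, 8 endothelial, 8 mural or 8 astrocyte markers, and 316 of the 788 microglial marker UMIs in wildtype imNeur cells lay in 1 cell. Doublets were not called here, and whether they had been removed is not given in the sources used here.

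The promoters of the division genes are shown because dividing cells were found in this label and not among the mNeur cells. Genes that switch on in G2 and mitosis are known to carry a cell cycle homology region (CHR, searched as TTTGAA or TTCGAA) and CCAAT boxes near their start, which bind the DREAM and NF-Y complexes. Printed are 280 bases, 250 before and 30 after the annotated start, 5′ to 3′, from RefSeq (GRCm38.p6), with CCAAT and CHR letters on either strand in capitals. They belong to Top2a (a DNA topoisomerase of dividing cells, chr11:99024160-99024439, minus strand), Cenpf (a kinetochore protein, chr1:189688057-189688336, minus strand) and Mki67 (the Ki-67 antigen, chr7:135716350-135716629, minus strand), the most abundant of 20 proliferation genes in wildtype imNeur cells, and to Ube2c (a ubiquitin enzyme of mitotic exit, chr2:164769679-164769958, plus strand).
Top2a: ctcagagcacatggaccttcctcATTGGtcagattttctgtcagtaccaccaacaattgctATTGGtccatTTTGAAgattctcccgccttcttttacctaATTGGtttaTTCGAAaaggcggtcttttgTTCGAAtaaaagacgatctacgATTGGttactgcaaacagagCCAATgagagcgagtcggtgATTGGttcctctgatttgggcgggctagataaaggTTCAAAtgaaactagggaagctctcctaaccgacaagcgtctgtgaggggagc
Cenpf: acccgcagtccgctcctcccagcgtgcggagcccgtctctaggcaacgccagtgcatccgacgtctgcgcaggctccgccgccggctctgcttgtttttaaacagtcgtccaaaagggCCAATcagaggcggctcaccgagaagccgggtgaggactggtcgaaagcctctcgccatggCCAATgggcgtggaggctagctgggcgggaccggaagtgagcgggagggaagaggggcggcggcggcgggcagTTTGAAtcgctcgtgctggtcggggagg
Mki67: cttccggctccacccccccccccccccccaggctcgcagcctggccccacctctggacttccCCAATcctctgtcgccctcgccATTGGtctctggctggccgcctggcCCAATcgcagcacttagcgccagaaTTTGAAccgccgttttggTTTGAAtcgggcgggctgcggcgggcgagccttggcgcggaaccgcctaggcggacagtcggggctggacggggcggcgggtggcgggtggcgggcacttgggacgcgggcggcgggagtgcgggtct
Ube2c: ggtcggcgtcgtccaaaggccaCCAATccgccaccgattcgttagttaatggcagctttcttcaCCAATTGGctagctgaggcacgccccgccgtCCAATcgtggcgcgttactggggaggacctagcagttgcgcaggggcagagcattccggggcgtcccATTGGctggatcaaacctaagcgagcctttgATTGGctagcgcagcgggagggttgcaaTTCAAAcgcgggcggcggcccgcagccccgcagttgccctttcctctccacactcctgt
In these windows Top2a held 6 CCAAT and 4 CHR matches, Cenpf 2 and 1, Mki67 3 and 2, and Ube2c 6 and 1. In Ube2c, overlapping matches on opposite strands were counted separately. Prc1, not printed, was more abundant than Ube2c in wildtype imNeur cells and held 1 and 1. The windows of Birc5, Nusap1 and Tyms held 0 of both, so the printed ones do not stand for all. Of the 20 proliferation genes 16 had a window, and 62.5% of these held both motifs, against 7.97% of the 27025 genes in the table. Of 42 S phase genes 31 had a window. Both motifs were in 16.1% of them, while 38.7% held an E2F motif (TTTCGCGC, TTTGGCGC or TTTCCCGC, either strand), against 1.99% of all genes. Of 25 neuroblast genes 16 had a window, and 18.8% held both motifs. Of 21 interneuron regulators 13 had a window, and 30.8% held both. A match is a run of letters and shows no binding.

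All 5 marker genes of the label were higher in imNeur cells than in each of the 12 other types compared, in both libraries (Hb_EC, with 5 cells, was left out). The authors clustered the cells on their expression, so differences between labels describe the cluster and are no test. Dcx, which encodes the microtubule protein doublecortin (chromosome X, 143855842 to 143933311, minus strand, GRCm38), was at 1113 CPM in transgenic and 1230.2 CPM in wildtype in imNeur, against 269 and 269 CPM in mNeur cells. Sox11, a transcription factor of newborn neurons (chromosome 12, 27334264 to 27342574, minus strand), was at 2681 CPM in transgenic and 3381 CPM in wildtype in imNeur, against 66.0 and 39.1 CPM in mNeur. The neighbouring homeobox genes Dlx1 (chromosome 2, 71528113 to 71533981, plus strand) and Dlx2 (chromosome 2, 71543408 to 71546754, minus strand) specify forebrain inhibitory neurons. Dlx1 was at 771 CPM in transgenic and 909 CPM in wildtype, against 186 and 284 CPM in mNeur, and Dlx2 at 410.2 CPM in transgenic and 418 CPM in wildtype, against 63.2 and 64.7 CPM in mNeur. Top2a (chromosome 11, 98992943 to 99024189, minus strand) was at 184 CPM in transgenic and 391 CPM in wildtype, with 0 UMIs in mNeur cells of either library.

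At full depth 94.9% of the transgenic and 96.1% of the wildtype cells held a UMI of Dcx. Shares were 91.0% and 95.1% for Dlx1, 79.5% and 84.5% for Dlx2, and 7.69% and 14.6% for Top2a. Per cell, Dcx ran from 0 through a median of 1107 to 2625 CPM in transgenic and from 0 through 1357 to 3785 CPM in wildtype cells. Sox11 ran from 0 through 2449 to 7420.1 CPM in transgenic and from 0 through 3397 to 6508 CPM in wildtype cells. Top2a had a median of 0 in both libraries and a highest cell of 3077 CPM in transgenic and 3555 CPM in wildtype.
To compare detection at 1 depth, each cell was thinned to 2000 UMIs in 1 random draw, whose own noise the intervals leave out. This kept 71 transgenic and 95 wildtype imNeur cells and left out 7 and 8. Sox11 was then seen in 94.4% of transgenic and 96.8% of wildtype imNeur cells (94.9% and 98.1% unthinned), against 14.3% and 4.92% of mNeur cells and 0.52% and 0.32% of microglia, which should lack it. Dcx was seen in 84.5% and 90.5%, against 0.52% and 0.38% of microglia. Of the imNeur cells, 95.8% in the transgenic and 97.9% in the wildtype library carried both a Dcx or Sox11 UMI and a UMI of Dlx1, Dlx2, Dlx5 or Dlx6os1.

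Genes of neuroblasts were high across the label. Of 25 listed, 19 were at least 2 times higher in imNeur than in mNeur cells in both libraries and 0 were that much lower, where 11.4% of 5450 genes tested were higher and 21.5% lower. Their summed level was 27076 CPM in transgenic and 29421 CPM in wildtype imNeur cells, against 4357 and 4592 CPM in mNeur cells, log2 ratios of 2.64 and 2.68. Of the 23 members at 50 CPM or more in both imNeur sums, 19 were highest in imNeur among 13 types, against 24.5% of 3222 such genes.
Stmn1, a microtubule destabiliser, was the most abundant, at 3944 CPM in transgenic and 3933 CPM in wildtype in imNeur against 708 and 926 CPM in mNeur. Sox4, a relative of Sox11, was at 2558 CPM in transgenic and 2627 CPM in wildtype, against 276 and 296 CPM in mNeur. Nfib, a nuclear factor of neural differentiation, was at 2433 CPM in transgenic and 2495 CPM in wildtype, against 280.5 and 330.2 CPM in mNeur. Stmn2, a growth cone protein, was at 1697 CPM in transgenic and 1999 CPM in wildtype, against 254 and 283 CPM in mNeur.
The tubulins differed among themselves. Tubb2b was at 2363 CPM in transgenic and 2745 CPM in wildtype, against 106 and 93.6 CPM in mNeur. The neuronal isoform Tubb3 was at 1009.8 CPM in transgenic and 1144 CPM in wildtype, against 179 and 199 CPM in mNeur. Tubb2a was at 390.3 CPM in transgenic and 451 CPM in wildtype, near the mNeur level of 419 and 369 CPM, although counting may split reads between such close paralogs. Gap43, a growth cone protein of extending axons, was at 109.6 CPM in transgenic and 113 CPM in wildtype, below 224 and 197 CPM in mNeur. Fabp7, a fatty acid binding protein of radial glia, was at 83.0 CPM in transgenic and 30.005 CPM in wildtype and was highest in cells labelled CPC, at 14983 CPM in transgenic and 14537 CPM in wildtype.

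Ranked by the ratio over all other frontal cortex cells together, the leading genes were Igfbpl1, Prokr2, Dpysl5, Hist1h1b, Sp9, Dlx2, Top2a, Dlx1, Dlx6os1, Sox11, Dcx, Tubb3, Dlx5, Asxl3 and Pclaf. Igfbpl1, which encodes a relative of the insulin-like growth factor binding proteins, was at 1066 CPM in transgenic and 1300.2 CPM in wildtype, against 33.0 and 13.6 CPM in mNeur. It was seen in 83.1% of transgenic and 86.3% of wildtype imNeur cells at equal depth, against 7.14% and 1.64% of mNeur cells. Prokr2, the receptor for prokineticin 2, which attracts neuroblasts to the olfactory bulb, was at 154 CPM in transgenic and 113 CPM in wildtype in imNeur and at 13.7 CPM in transgenic mNeur cells, with 0 UMIs in wildtype mNeur cells. Dpysl5, a collapsin response mediator protein, was at 173 CPM in transgenic and 200.03 CPM in wildtype, against 22.0 and 15.3 CPM in mNeur. Among the replication genes, Pclaf, a PCNA-binding factor, lay in 14 cells of each library, and Hist1h1b, a replication-dependent linker histone, in 32 transgenic and 33 wildtype cells.

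Regulators of the interneuron lineage were shared with mNeur cells and higher in imNeur. Their sum was 9814 CPM in transgenic and 10400.5 CPM in wildtype imNeur cells, with log2 ratios over mNeur of 1.11 and 1.07. Of 16 tested, 7 were at least 2 times higher and 1 lower, beside 11.4% and 21.5% of all tested genes. Of 14 at 50 CPM or more in both imNeur sums, 13 were highest in imNeur among the 13 types, beside 24.5% of such genes. Meis2, a homeobox factor of the lateral ganglionic eminence lineage, was at 3014 CPM in transgenic and 3057 CPM in wildtype, against 1808 and 1850.3 CPM in mNeur. It was seen in 95.8% and 96.8% of imNeur cells at equal depth.
Sp9, a zinc finger factor of that lineage, was at 526 CPM in transgenic and 579 CPM in wildtype, against 117 and 106 CPM in mNeur. Its relative Sp8 was at 277 CPM in transgenic and 375 CPM in wildtype, against 165 and 182 CPM in mNeur. Etv1 and Tshz1, which mark subsets of olfactory bulb interneurons, were also higher than in mNeur, by less than Sp9. Etv1 was at 440.1 CPM in transgenic and 440.1 CPM in wildtype, against 239 and 235 CPM in mNeur, and Tshz1 at 487 CPM in transgenic and 376 CPM in wildtype, against 290.1 and 233 CPM in mNeur.
Dlx6os1, a long non-coding RNA antisense to Dlx6, was at 1256 CPM in transgenic and 1385 CPM in wildtype, and Dlx6 at 103 CPM in transgenic and 88.8 CPM in wildtype. No source used here states whether counting used strand, so reads of that pair may not be told apart. Lhx6 and Nkx2-1, of interneurons from the medial ganglionic eminence, and Isl1, of striatal projection neurons, had 0 UMIs in both imNeur sums. Zic1, a zinc finger factor, was the member lower than in mNeur, at 38.2 CPM in transgenic and 25.004 CPM in wildtype against 139 and 240.01 CPM.

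The imNeur cells held less of the GABA machinery than mNeur cells and few transcripts of interneuron subtypes. Of 14 tested members of the list, 11 were at least 2 times lower than in mNeur and 0 higher, beside 21.5% and 11.4% of all tested genes. The log2 ratios of sums were -2.31 in transgenic and -2.39 in wildtype. Gad1, a GABA-synthesising enzyme, was at 251 CPM in transgenic and 263 CPM in wildtype, against 1094 and 1658 CPM in mNeur. Its partner Gad2 was at 394 CPM in transgenic and 449 CPM in wildtype, against 840.1 and 650.2 CPM in mNeur. At equal depth Gad1 was seen in 31.0% of transgenic and 44.2% of wildtype imNeur cells, against 60.0% and 60.7% of mNeur cells. Gad2 went the other way and was seen in 57.7% and 55.8% of imNeur cells, against 42.9% and 47.5% of mNeur cells and 0.52% and 0.27% of microglia.
Slc12a5, the chloride exporter KCC2 of mature neurons, had 3 and 2 UMIs in imNeur, against 252 and 182 CPM in mNeur. Slc12a2, the chloride importer NKCC1, was at 41.5 CPM in transgenic and 37.5 CPM in wildtype, against 72.9 and 44.3 CPM in mNeur. Calb2 (calretinin) had 2 and 6 UMIs, against 1745 and 1906 CPM in mNeur. Th, Pvalb, Sst and Vip, which mark other interneuron classes, had 0 UMIs in both imNeur sums.
Of 13 glutamatergic genes, 9 had 0 UMIs in both imNeur sums, among them Eomes and Neurod1 of excitatory progenitors and young neurons and the vesicular transporter Slc17a7. The list summed to 13.3 CPM in transgenic and 3.75 CPM in wildtype imNeur cells.

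Genes of mature neurons were mostly lower in imNeur cells. Of 24 tested, 20 were at least 2 times lower than in mNeur and 0 higher, beside 21.5% and 11.4% of all tested genes. The log2 ratios of sums were -2.19 in transgenic and -1.91 in wildtype. Syt1, the calcium sensor of transmitter release, was at 38.2 CPM in transgenic and 25.004 CPM in wildtype, against 1583 and 1854 CPM in mNeur. Snap25, of the release machinery, was at 121 CPM in transgenic and 75.012 CPM in wildtype, against 1347 and 1655 CPM in mNeur. Meg3, a long non-coding RNA of neurons, was at 2807 CPM in transgenic and 2882 CPM in wildtype, against 11340.5 and 7702 CPM in mNeur.
Some members were not low. Map2, the dendritic microtubule protein, was at 729 CPM in transgenic and 800.1 CPM in wildtype, against 675 and 699.6 CPM in mNeur, and Stmn3 at 543 CPM in transgenic and 585 CPM in wildtype, against 531 and 662 CPM in mNeur. Genes with the largest ratios of mNeur over imNeur included Cpne6, Calb2, Scg2, Grm5, Snhg11, Ndnf, Dnm1, Shisa8 and Vsnl1.

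Genes of migration were more often higher than lower. Of 18 tested, 9 were at least 2 times higher and 1 lower in imNeur than in mNeur. Of all genes tested between these labels, 11.4% were higher and 21.5% lower. Ncam1, the carrier of polysialic acid, was at 1285 CPM in transgenic and 1358 CPM in wildtype, against 481 and 419 CPM in mNeur. St8sia2, an enzyme that adds polysialic acid, was at 93.0 CPM in transgenic and 100.02 CPM in wildtype, against 1.37 and 1.70 CPM in mNeur. Robo2, a receptor for the Slit repellents, was at 485 CPM in transgenic and 404 CPM in wildtype, against 132 and 163 CPM in mNeur. Erbb4, a neuregulin receptor of migrating interneurons, was at 194 CPM in transgenic and 184 CPM in wildtype, against 60.5 and 56.2 CPM in mNeur. Cxcr4, the chemokine receptor of migrating cortical interneurons, had 4 UMIs in each imNeur sum.

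**Figure D1:**
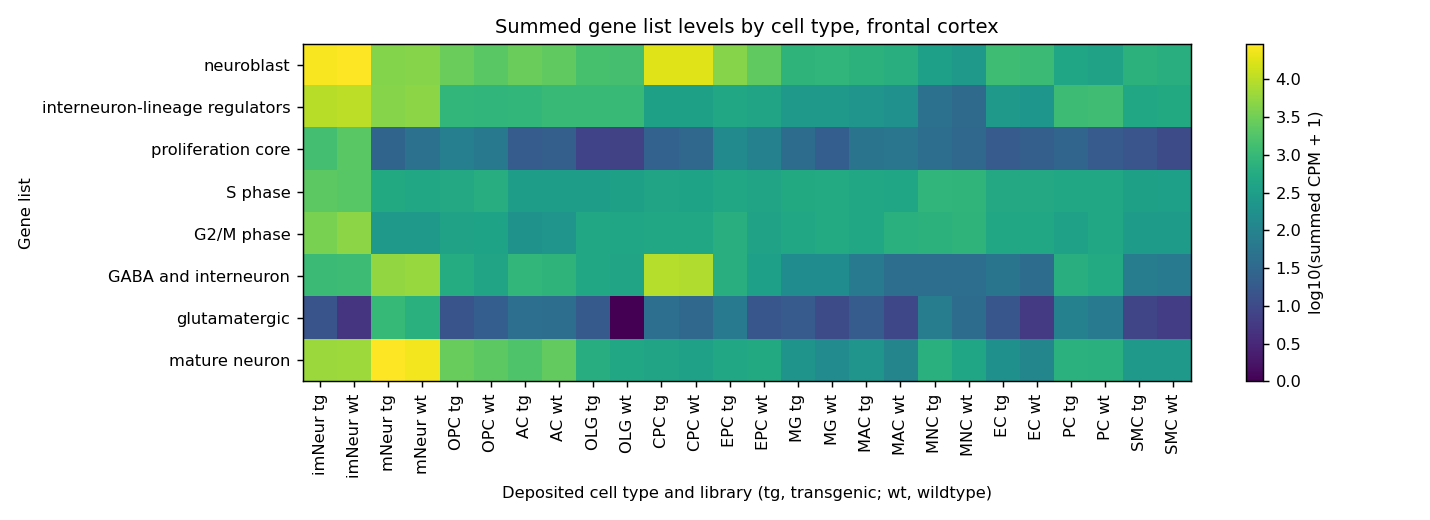
Summed level of 8 gene lists (down the page) in 13 cell types (across, transgenic left of wildtype), as log10 of summed CPM + 1 in colour. The imNeur columns are highest for the neuroblast, interneuron-lineage, proliferation, S phase and G2/M lists, mNeur for the glutamatergic and mature neuron lists, and CPC for the GABA and interneuron list.

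Cell cycle genes were far above mNeur. All 15 tested proliferation genes, 25 of 26 tested G2/M genes and 13 of 16 tested S phase genes were at least 2 times higher in imNeur in both libraries, and 0 were lower. Apart from Rrm2 and Tyms, which are on the S phase list, the proliferation genes are all on the G2/M list too, so these counts overlap. Of all genes tested between these labels, 11.4% were higher and 21.5% lower. The proliferation sum was 1364 CPM in transgenic and 2103 CPM in wildtype imNeur cells, log2 ratios over mNeur of 5.71 and 5.46. Of 10 tested genes on the list of cell cycle exit, 6 were higher. That list also holds the D-type cyclins Ccnd1, Ccnd2 and Ccnd3, which drive cells through G1 and are no exit genes. Ccnd2 was at 2599 CPM in transgenic and 2364 CPM in wildtype, against 24.7 and 54.5 CPM in mNeur. Its level stands beside list sums of 4994 CPM in transgenic and 5305 CPM in wildtype imNeur cells. Btg1, an antiproliferative gene, was at 1398 CPM in transgenic and 1687 CPM in wildtype, against 285 and 298 CPM in mNeur. Of 6 tested progenitor genes 4 were higher, and Sox2, a stem cell factor, was at 304 CPM in transgenic and 388 CPM in wildtype, against 81.1 and 61.3 CPM in mNeur.

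A minority of imNeur cells carried the division programme. Cells with at least 5 UMIs over the 20 proliferation genes, called dividing below, numbered 6 of 78 in the transgenic library (7.69%, exact 95% interval 2.88 to 15.99%) and 15 of 103 in the wildtype library (14.6%, 8.39 to 22.9%). These intervals overlap. The same threshold found 0 of 80 transgenic and 0 of 67 wildtype mNeur cells. Exact 95% upper limits there are 4.51% and 5.36%, and 3 counts of the total would be 3.75% and 4.48%. It found 4 of 1445 transgenic and 0 of 1912 wildtype microglia. Among cells labelled OPC it found 1 of 35 transgenic (2.86%, 0.07 to 14.9%) and 3 of 79 wildtype ones (3.80%, 0.79 to 10.7%). The OPC intervals overlap those of imNeur. Few cells lay near the threshold: 2 transgenic and 3 wildtype cells held 3 to 6 UMIs, and 4 and 14 cells held 20 or more, up to 373 and 220.
Dividing cells were deeper, with median UMIs of 18934 in transgenic and 12435 in wildtype, against 6746 and 7129 in the other imNeur cells. At 2000 UMIs per cell and a threshold of 2 UMIs, the shares were 7.04% of 71 transgenic and 14.7% of 95 wildtype cells. Of the dividing cells, 6 of 6 transgenic and 14 of 15 wildtype ones held a Dlx UMI. The wildtype cell without one had 11581 UMIs and held the 316 microglial marker UMIs given above.

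**Figure D2:**
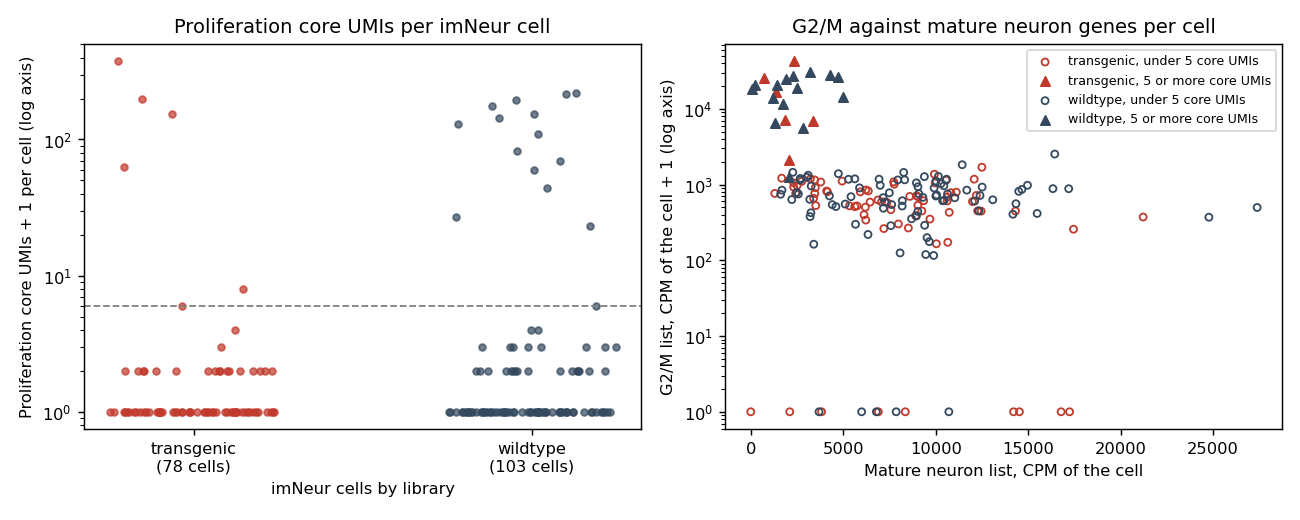
Left, UMIs of the 20 proliferation genes + 1 per imNeur cell (log axis), transgenic left of wildtype, 1 point per cell, dashed line at 5 UMIs. The 6 transgenic and 15 wildtype cells on or above the line are the dividing cells. Right, G2/M list level + 1 (CPM of the cell, log axis) against mature neuron list level (CPM of the cell), with triangles for cells with 5 or more proliferation UMIs.

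Dividing and other imNeur cells were close in Dlx2 and Sox11 but differed in the interneuron list sum and in stage genes. Cell cycle lists belong to the choice of these cells and are not compared. Dlx2 was at 372 CPM in transgenic and 459 CPM in wildtype in dividing cells, against 418 and 405 CPM in the others. Sox11 was at 2233 CPM in transgenic and 3146 CPM in wildtype, against 2772 and 3451 CPM. The interneuron regulators summed to 5015 CPM in transgenic and 7318 CPM in wildtype dividing cells, against 10794 and 11328 CPM in the others. The neuroblast list summed to 21978 CPM in transgenic and 26861 CPM in wildtype dividing cells, against 28117 and 30191 CPM. Dcx was lower in dividing cells, at 441 CPM in transgenic and 665 CPM in wildtype, against 1249.96 and 1400.3 CPM in the others. Meis2 was at 911 CPM in transgenic and 1292 CPM in wildtype, against 3444 and 3588 CPM in the others. Robo2 was at 97.9 CPM in transgenic and 168 CPM in wildtype, against 564 and 475 CPM in the others.
Prokr2 had 0 UMIs in the dividing cells of both libraries, against 93 UMIs in the other transgenic and 90 in the other wildtype cells. The mature neuron list summed to 1675 CPM in transgenic and 2469.96 CPM in wildtype in dividing cells, against 7166 and 7742 CPM in the others. Genes of earlier stages were higher in dividing cells. Egfr, the growth factor receptor of activated progenitors, had 8 UMIs in transgenic and 7 UMIs in wildtype dividing cells, against 4 and 1 UMIs in the others. Vim, the intermediate filament vimentin, was at 715 CPM in transgenic and 470.2 CPM in wildtype, against 154 and 106 CPM in the others. Ccnd2 was high in both, at 4456 CPM in transgenic and 3113 CPM in wildtype in dividing cells, against 2219.9 and 2139 CPM in the others. Btg1 was at 460.3 CPM in transgenic and 903 CPM in wildtype, against 1589.95 and 1922 CPM in the others.

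Between genotypes, most genes of the label differed little. Of 3963 genes tested (at 50 CPM in at least 1 library and 20 UMIs over both), 192 (4.84%) were at least 1.5 times higher in transgenic than in wildtype imNeur cells and 232 (5.85%) lower. The median log2 ratio of tested genes was -0.02. Dcx had a log2 ratio of -0.14 (-0.29 to -0.00), Sox11 of -0.33 (-0.42 to -0.25), Dlx1 of -0.24 (-0.41 to -0.07) and Dlx2 of -0.03 (-0.27 to 0.22), each with its 95% counting interval and all under the 1.5-fold mark. In the random draw at equal depth, Dlx1 was seen in 62.0% of transgenic cells (49.7 to 73.2%) and 83.2% of wildtype cells (74.1 to 90.1%). Its ratio there was -0.56. With all UMIs the shares were 91.0% and 95.1%.
Of 25 neuroblast genes, all tested, 2 were higher (Pbx3 and Fabp7) and 1 lower (Draxin), and their median log2 ratio was -0.18. Of 15 tested interneuron regulators 1 was higher (Foxp2) and 1 lower (Pax6). Of 15 tested migration genes 0 passed the mark in either direction. Of 8 tested mature neuron genes 1 was higher (Snap25, 0.69). At equal depth Snap25 was seen in 23.9% of transgenic and 21.1% of wildtype imNeur cells, while microglia, not known to make it, gave 4.72% in the transgenic and 0.65% in the wildtype library.

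Pbx3, Foxp2 and Pax6, transcription factors of subsets of young neurons, passed the mark, the first 2 higher and Pax6 lower in transgenic cells. Pbx3, a homeobox factor, was at 633 CPM in transgenic and 320.1 CPM in wildtype (log2 ratio 0.98, 0.75 to 1.22). Per cell it ran from 0 through a median of 609 to 4737 CPM in transgenic and from 0 through 97.3 to 3327 CPM in wildtype cells, so the cells of both libraries overlap widely. Foxp2, a forkhead factor, was at 144 CPM in transgenic and 47.5 CPM in wildtype (1.60, 1.04 to 2.19), with UMIs in 30 of 78 transgenic and 21 of 103 wildtype cells. Pax6, a factor of progenitors and of dopaminergic olfactory interneurons, was at 138 CPM in transgenic and 264 CPM in wildtype (-0.94, -1.32 to -0.56), with UMIs in 33 transgenic and 62 wildtype cells.
At equal depth, Pbx3 was seen in 46.5% of transgenic (34.5 to 58.7%) and 36.8% of wildtype cells (27.2 to 47.4%). Pbx3 without Pax6 was seen in 40.8% of transgenic and 27.4% of wildtype cells, and Pax6 without Pbx3 in 11.3% and 24.2%. Among cells with a Pbx3 UMI, Foxp2 was seen in 13 of 33 transgenic and 7 of 35 wildtype cells, and among cells without one in 6 of 38 and 3 of 60. The intervals of these shares overlap between genotypes. Microglia gave a Pbx3 UMI in 4.80% and 6.86% of cells at that depth, and a Foxp2 UMI in 0.22% and 0.00%.
Without the dividing cells the ratios were 0.95 for Pbx3, 1.67 for Foxp2 and -0.80 for Pax6. Without the cells rich in RNA of another type they were 0.90, 1.49 and -0.94. Draxin, a secreted axon guidance protein, was at 31.6 CPM in transgenic and 80.0 CPM in wildtype (-1.34, -2.16 to -0.58), with UMIs in 14 transgenic and 36 wildtype cells. Fabp7 had a ratio of 1.47 (0.74 to 2.24), but 35 of its 50 transgenic UMIs lay in 1 cell.

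**Figure D3:**
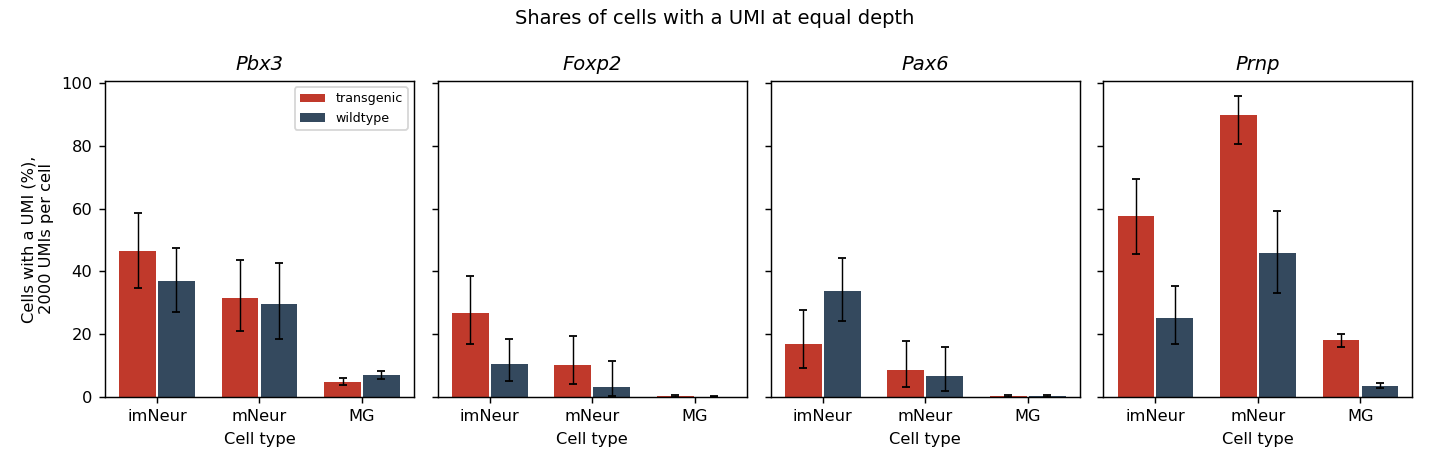
Share of cells with a UMI of Pbx3, Foxp2, Pax6 and Prnp at 2000 UMIs per cell, in imNeur, mNeur and microglia (MG), transgenic bars left of wildtype, with exact binomial 95% intervals. In imNeur, Pbx3, Foxp2 and Prnp were seen in a larger share of transgenic cells and Pax6 in a smaller one. The imNeur intervals of Pbx3, Foxp2 and Pax6 overlap between genotypes, and those of Prnp do not.

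Proliferation genes were lower in the transgenic library. Of 15 tested, 8 were lower and 0 higher, beside 5.85% and 4.84% of all tested genes, and 1 of the 20 members (Ccna2) had a ratio above 0. Their median log2 ratio was -0.57 and the ratio of sums -0.63 (-0.75 to -0.50). At equal depth the ratio of sums was -1.04 (-1.39 to -0.70). Top2a had 111 UMIs in 6 transgenic cells and 313 UMIs in 15 wildtype cells (log2 ratio -1.09, -1.41 to -0.77). Mki67 was at 94.7 CPM in transgenic and 180.03 CPM in wildtype (-0.93, -1.40 to -0.48) and Ube2c at 83.0 CPM in transgenic and 150.03 CPM in wildtype (-0.85, -1.36 to -0.37). Of 26 tested G2/M genes, 10 were lower and 0 higher. All proliferation genes but Rrm2 and Tyms are on the G2/M list too, so this is no separate count. The G2/M ratio of sums was -0.38 (-0.46 to -0.31), and at equal depth -0.64 (-0.85 to -0.45).
The proliferation UMIs came from few cells: the 5 highest held 794 of 821 in the transgenic and 957 of 1682 in the wildtype library. The dividing cells, whose shares have overlapping intervals, held 799 of the 821 and 1644 of the 1682 UMIs. The members are therefore not separate observations. Without the dividing cells, chosen on some of these genes, the G2/M sum had a ratio of -0.08 (-0.29 to 0.13). There 0 of 4 tested G2/M genes passed the mark, beside 210 higher and 271 lower of 3949 genes tested. Without the cells rich in RNA of another type, the proliferation sum had a ratio of -0.52. There 7 of 15 tested members were lower, beside 213 of 3933 genes tested.
S phase genes went differently. Of 16 tested, 5 were higher (Pcna, Pola1, Mcm6, Hells and Uhrf1) and 0 lower, and the ratio of sums was 0.10. The 6 transgenic dividing cells held 684 of the 1303 S phase UMIs of that library. Without the dividing cells of both libraries 1 of 8 tested was higher and 0 lower, beside 210 and 271 of 3949 genes tested. The ratio of sums was then 0.04 (-0.12 to 0.19). With cells at equal depth, 1 of 7 tested was higher and 2 lower, and the ratio of sums was -0.22 (-0.47 to 0.04). Of all 3124 genes tested at that depth, 326 were higher and 406 lower. Uhrf1, a chromatin factor of replication, had 33 UMIs in transgenic cells, 17 of them in 1 cell, and 14 UMIs in wildtype cells. Pcna, the polymerase clamp, was at 115 CPM in transgenic and 71.3 CPM in wildtype (0.69, 0.16 to 1.22).
Of 10 tested genes on the list of cell cycle exit, which also holds D-type cyclins, 3 were lower (Gadd45g, Cdkn1a and Cdkn2c) and 0 higher. Gadd45g, a stress- and differentiation-induced gene, was at 103 CPM in transgenic and 223 CPM in wildtype (-1.11, -1.55 to -0.69). Cdkn1a, the inhibitor p21, had 22 UMIs in transgenic and 73 in wildtype cells. Of the 73, 56 lay in the wildtype dividing cell with the microglial markers, and the ratio of -1.32 was 0.56 without the cells rich in RNA of another type.

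**Figure D4:**
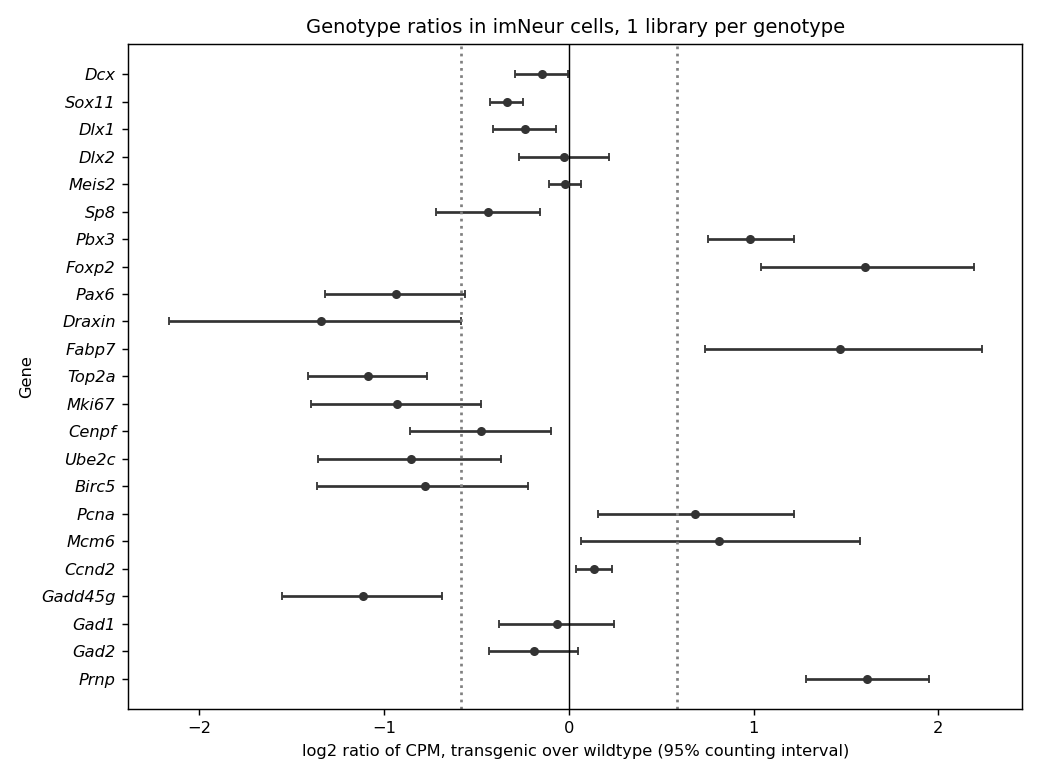
Log2 ratio of CPM, transgenic over wildtype, in imNeur cells for 23 genes, with 95% counting intervals and dotted lines at 1.5-fold. Prnp, Foxp2, Fabp7, Pbx3, Pcna and Mcm6 lie right of the upper line, and Draxin, Gadd45g, Top2a, Pax6, Mki67, Ube2c and Birc5 left of the lower one.

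Prnp encodes the prion protein and lies on the plus strand of chromosome 2 (131909928 to 131938429). It was higher in transgenic imNeur cells, at 417 CPM in transgenic and 136 CPM in wildtype (log2 ratio 1.61, 1.28 to 1.95). Mouse lines known under this strain name carry the transgene behind the mouse Prnp promoter, which the labels do not state. Whether transgene reads were counted as Prnp was not tested, so these levels are not shown to be of the mouse gene alone. In mNeur cells Prnp was at 6009.8 and 308 CPM (4.29, 4.07 to 4.51), and it was higher in transgenic than wildtype in all 13 types. Of all 4623 genes tested in mNeur cells, 9.41% were at least 1.5 times higher in transgenic and 7.9% lower. At equal depth it was seen in 57.7% of transgenic and 25.3% of wildtype imNeur cells, and in 90.0% and 45.9% of mNeur cells. Microglia gave 18.0% and 3.46%, and the part of RNA from outside the cells in the imNeur difference was not tested.

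Among all genes, the largest ratios included those of Ifit1, Ifitm3 and Ifi27. Ifit1, an interferon-induced gene, had 51 UMIs in transgenic imNeur cells, 34 of them in 1 cell, and 0 in wildtype cells, so with 3 UMIs over the wildtype group as floor its log2 ratio was at least 4.50, or 4.15 with the counting error of the 51 UMIs. At equal depth it was at least 3.08. Ifitm3 was at 99.6 CPM in transgenic and 25.004 CPM in wildtype (1.99, 1.24 to 2.80) and Ifi27 at 105 CPM in transgenic and 30.005 CPM in wildtype (1.80, 1.10 to 2.55). Without the cells rich in RNA of another type these were 1.70 and 1.82, but at equal depth the ratio of Ifi27 was 0.25. Endothelial cells carried Ifitm3 at 1388 CPM in transgenic and 1002 CPM in wildtype, and all 8 endothelial markers had UMIs in imNeur cells of both libraries, summing to 573 CPM in transgenic and 295 CPM in wildtype. Without the cells rich in RNA of another type these sums were 263 and 307 CPM. Their part in the result was not tested.
Other high ratios were those of Msmo1 (1.41) and Acat2 (1.20), of sterol and acetyl-CoA metabolism, Lars2 (1.32), a mitochondrial leucyl-tRNA synthetase, the kinase Taok3 (1.20), the calcium pump Atp2b1 (1.13), Pcsk1n (1.04) and the ribosome recycling factor Abce1 (0.99).
Among the lowest ratios, Fcrls (-2.18), Lgmn (-1.42) and Ctsd (-1.28) were highest in microglia among the types, and Klf2 (-1.79) in macrophages or endothelial cells. All 8 microglial markers had UMIs in imNeur cells of both libraries, summing to 329 CPM in transgenic and 985 CPM in wildtype. Without the cells rich in RNA of another type these sums were 331 and 277 CPM, and the ratios were 0.26 for Fcrls, 0.12 for Ctsd and -0.38 for Lgmn. Megf9 (-1.35), Rnf115 (-1.34), the linker histone Hist1h1d (-1.29), Trim67 (-1.25) and Rpgrip1 (-1.23) were also among the lowest, and their highest level in any other type was 88.3 CPM. Erythroid markers differed as well, at 364 CPM in transgenic and 28.8 CPM in wildtype imNeur cells, with Alas2 at 0 in both, and their part in any ratio was not tested.

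The imNeur label made up 2.07% of 3775 transgenic cells (1.64 to 2.57%) and 1.65% of 6239 wildtype cells (1.35 to 1.999%), a difference of 0.42 percentage points (-0.12 to 0.996). With a filter on cells (fewer than 10% of UMIs mitochondrial, 500 genes or more) the difference was 0.63 points (0.047 to 1.27). Of the cells with either neuron label, imNeur made up 49.4% of 158 transgenic and 60.6% of 170 wildtype cells, as mNeur cells were 2.12% and 1.07% of the libraries. The dissociation was meant for other cell types, so these are shares of the libraries and not of the tissue.

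The same label in midbrain held other cells. Its 13 transgenic and 71 wildtype cells had 0 Dlx1 and Dlx2 UMIs and Dcx at 84.3 and 122 CPM. Pdgfra, the growth factor receptor of oligodendrocyte precursors, was at 2507 and 2183 CPM there. In frontal cortex imNeur cells the 8 markers of such precursors summed to 13.3 CPM in transgenic and 11.3 CPM in wildtype, with Sox10, Gpr17 and Lhfpl3 at 0 UMIs in both.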

How the data were processed

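Single-cell libraries of frontal cortex and midbrain were made from transgenic and wildtype littermate mice, 1 library per region and genotype. The matrices the authors deposited give whole UMI counts, not normalized, for each gene in each cell, and the deposited cell tables hold the authors' cell labels, clusters and a mitochondrial percent per cell. Per the submitters' processing notes the tools included Cell Ranger 3.0.0, the genome build was mm10 and Seurat 3.1.5 was also used. The authors' filters on cells and treatment of doublets are not given in the sources used here.

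Here, UMIs were summed over the cells of each label and library and expressed as CPM, with Python 3.11.15 (scipy 1.17.1). Log2 ratios of transgenic over wildtype have exact 95% intervals conditional on the summed UMIs, and the floor for a count of 0 was 3 UMIs over the group. Shares have exact binomial 95% intervals, and their difference a Newcombe interval. PCR and capture make these cover counting error only. Genes were counted at 1.5-fold between genotypes, at 50 CPM in at least 1 library and 20 UMIs over both, and at 2-fold in both libraries between labels. No test was run, since each group is 1 library. The steps were tested on simulated data.

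Named genes were the 5 markers, list members, the 15 genes highest in imNeur over all other cells and 10 highest in mNeur over imNeur (at 100 CPM in both libraries), the 12 largest and 12 smallest genotype ratios that kept their direction under TMM and the mean of per-cell CPM, and Prnp. Some genes that this rule names are not reported here. The members and lists were chosen with earlier results of these data known. Alternatives were edgeR 4.0.16 TMM and DESeq2 1.42.0 size factors, used for scaling alone, totals without mitochondrial and ribosomal protein genes, per-cell means, thinning, cell filters and no filter on low genes. Promoters and coordinates are GRCm38.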

Additional observations from a re-analysis of the deposited data

Results flagged for a closer look

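For 5 genes and 2 marker sums, the genotype difference had opposite directions in the 2 neuron labels, imNeur and mNeur. The difference between the labels was not tested. The log2 ratios of transgenic over wildtype, imNeur first, were -0.73 and 0.68 for Dusp1, -1.08 and 2.67 for Atf3, both genes of the early stress response, and -2.18 and 1.41 for Fcrls, a microglial receptor. They were -1.42 and 1.19 for Lgmn and -1.28 and 0.93 for Ctsd, which are likewise abundant in microglia. The sum of 8 microglial markers was at -1.58 in imNeur and 1.76 in mNeur, and that of 8 endothelial markers at 0.96 in imNeur and -1.75 in mNeur. In imNeur 575 of the 788 wildtype microglial UMIs lay in 2 cells, and 192 of the 345 transgenic endothelial UMIs in 1 cell. Of the 59 Atf3 UMIs in wildtype imNeur cells, 27 lay in 1 cell.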

How the results depend on the processing

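No paired analysis was possible because each group is 1 library, and no replicate could be left out. The counts of genes at 1.5-fold, 192 higher and 232 lower, became 307 and 358 with the mean of per-cell CPM, 326 and 406 with cells thinned to 2000 UMIs, and 3300 and 2850 with no filter on low genes. Without mitochondrial and ribosomal protein genes in the total, 295 were higher. The higher share of these calls was 45.3%, against 35.98% under TMM, 37.6% under DESeq2 size factors and 51.8% without mitochondrial and ribosomal genes. Of 39 genes compared one by one, 22 stayed within their counting interval when thinned. The share difference of imNeur cells reversed to -11.2 percentage points among neurons. Thinned, Abce1 reversed to -0.094 and Uhrf1 to -1.58. Without cells with 4 or more UMIs of other types (10 transgenic and 18 wildtype cells kept), Atp2b1 reversed to -0.98, Klf2 to 0.67, Megf9 to 0.25 and Fabp7 to -0.11. Cdkn1a was at 0.49 without dividing cells. Leaving out the cells with 20 or more UMIs of 1 other type was chosen after seeing the data, and reversed Cdkn1a to 0.56, Ctsd to 0.12 and Fcrls to 0.26. The cause of the other changes was not tested.

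The log2 ratios of list sums, imNeur over mNeur, kept their direction. With the mitochondrial and gene filter they were 2.51 for neuroblast genes (transgenic), 0.90 and 0.996 for interneuron regulators (transgenic and wildtype, as below), -2.51 for GABA genes (transgenic) and -2.08 and -1.85 for mature neuron genes. With the mean of per-cell CPM they were 2.58 for neuroblast genes (transgenic), 1.26 and 1.15 for interneuron regulators, -2.08 for GABA genes (wildtype), -1.76 and -1.65 for mature neuron genes and 4.71 and 4.61 for proliferation genes. Without mitochondrial and ribosomal protein genes they were 2.76 and 2.79, 1.23 and 1.17, -2.19 and -2.29, and -2.07 and -1.80 for neuroblast, interneuron, GABA and mature neuron genes. With 78 transgenic and 103 wildtype cells, dividing cells are few and set the precision of their genes.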
